A study of Mus musculus with 12 samples.

Results

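The colitis of mice with a myeloid deletion of Tmem173, the gene for the innate immune adaptor STING, was described by comparing 3 colon RNA libraries from Tmem173iΔmye mice given dextran sodium sulfate (DSS) with 3 from untreated Tmem173iΔmye mice. These 6 libraries were chosen by genotype and numbered 1, 2 and 5 (DSS) and 1, 2 and 3 (untreated), out of 12 libraries in the whole series. Every mouse of the series carried floxed Tmem173 alleles and received 5 injections of tamoxifen. In the Tmem173iΔmye mice, a tamoxifen-inducible Cre driven from the Lyz2 locus acted in myeloid cells, and the Tmem173fl/fl controls lacked Cre (genotypes CRE and WT in the labels). The colitic mice of both genotypes drank DSS for 7 days and then water, the untreated mice drank water, and Tmem173fl/fl mice supplied the other 6 libraries, 3 with and 3 without DSS. Mice were 6 to 8 weeks old when DSS began. The labels number the libraries without saying that each came from a separate mouse, so the p-values measure the spread between these libraries. The Xist and Y-linked patterns given below show at least 2 mice in each Tmem173iΔmye group.

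DSS injures the colonic epithelium and lets luminal bacteria reach the mucosa. Macrophages, stromal cells and epithelium then release chemokines and cytokines, neutrophils and monocytes enter from the blood, and the tissue makes acute phase and antimicrobial proteins while the crypts regenerate. STING sits on the endoplasmic reticulum, binds the cyclic dinucleotide made by cGAS when DNA reaches the cytosol, and through TBK1 and IRF3 induces type I interferon and interferon-stimulated genes, with NF-κB as a further output. Whole colon was sequenced, so for every transcript below fewer cells of a type and less RNA per cell cannot be told apart.

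The libraries held 13823237 to 17467008 counted reads in the Tmem173iΔmye mice and up to 18718915 over all 12. Levels are given as CPM, counts scaled to one common library size with the TMM factors of edgeR. All 6 libraries held colonic epithelium, with the keratin gene Krt8 at 4673, 5272 and 5760 CPM in untreated libraries 1, 2 and 3 and 3336, 3862 and 3973 CPM in DSS libraries 1, 2 and 5. The colitic libraries were less alike than the untreated ones. Across genes, pairs of DSS Tmem173iΔmye libraries had correlations of log2 CPM of 0.947 to 0.968, against 0.974 to 0.983 in the other groups, and genes are not independent replicates. Libraries of both genotypes held pancreatic transcripts. The summed CPM of 13 pancreas genes was 12962, 142 and 225 in Tmem173iΔmye DSS libraries 1, 2 and 5 and 127, 2351 and 192 in the untreated libraries. In Tmem173fl/fl it was 10239, 5329 and 683 in DSS libraries 1, 2 and 3 and 235, 107 and 4362 in untreated libraries 1, 2 and 3. Untreated library 3 of each genotype and Tmem173iΔmye DSS library 5 showed the Xist pattern of female tissue, and the other 9 the Y-linked pattern of male tissue. The levels of Hoxb13, a posterior homeobox gene, were 112, 87.2 and 237 CPM in the untreated libraries and 28.6, 21.1 and 196 CPM in the DSS libraries, so DSS library 5 stood apart from the other two. The part of the pancreatic transcripts and of the Hoxb13 difference in the results below was not tested. Counts without each library are given beside the gene groups that the text leads with.

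The deleted gene was examined first. Tmem173 was read at 17.2, 14.6 and 21.3 CPM in untreated Tmem173iΔmye libraries 1, 2 and 3 and at 47.8, 23.8 and 31.1 CPM in DSS libraries 1, 2 and 5. All the colitic values lay above all the untreated ones, but the difference did not pass the test (log2 fold change 0.95, SE 0.28, edgeR adjusted p = 0.135). Counts over the whole gene, summed over every cell type of the colon, do not show whether the floxed exons were lost in myeloid cells. Lyz2, the lysozyme gene of macrophages and neutrophils at whose locus the Cre sits, stood at 94.4, 76.4 and 115 CPM without DSS and 319, 231 and 357 CPM with DSS, and rose in all 3 colitic libraries (log2 fold change 1.66, SE 0.24, edgeR adjusted p = 0.00895). Of the 14 genes listed for the STING pathway 12 were tested, their median log2 fold change was -0.03, and 1 was called (2 without DSS library 5, and 0 without any one untreated library). That gene, Irf7, encodes an interferon-induced transcription factor and fell from 314, 385 and 417 CPM to 128, 156 and 96.4 CPM (log2 fold change -1.56, SE 0.23, edgeR adjusted p = 0.0109). The kinase gene Tbk1 had a log2 fold change of -0.15 (SE 0.25) and Irf3 one of -0.06 (SE 0.26), neither past the test.

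Of 54532 genes in the table, 24102 reached an FPKM of 0.1 in 3 or more of the 12 libraries and were tested. A gene was called when its Benjamini-Hochberg adjusted p from the quasi-likelihood test of edgeR was under 0.05 and its log2 fold change was at least 1 in size. DSS changed 501 genes in the Tmem173iΔmye mice, 2.08% of those tested: 357 were higher (1.48%) and 144 lower (0.597%). The median log2 fold change over all tested genes was 0.02. In all 501 called genes the DSS and untreated values did not overlap, against 5192 of the 24102 tested genes (21.5%). The number of called genes depended on single libraries. With all libraries, DESeq2 called 1137 and limma on log2(FPKM + 0.1) called 41, and edgeR with a term for the Xist and Y-linked pattern called 635. By edgeR without that term the number was 1469 without DSS library 5, 372 without DSS library 2 and 238 without DSS library 1, and 72, 51 and 57 without untreated library 1, 2 or 3.

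**Figure D1:**
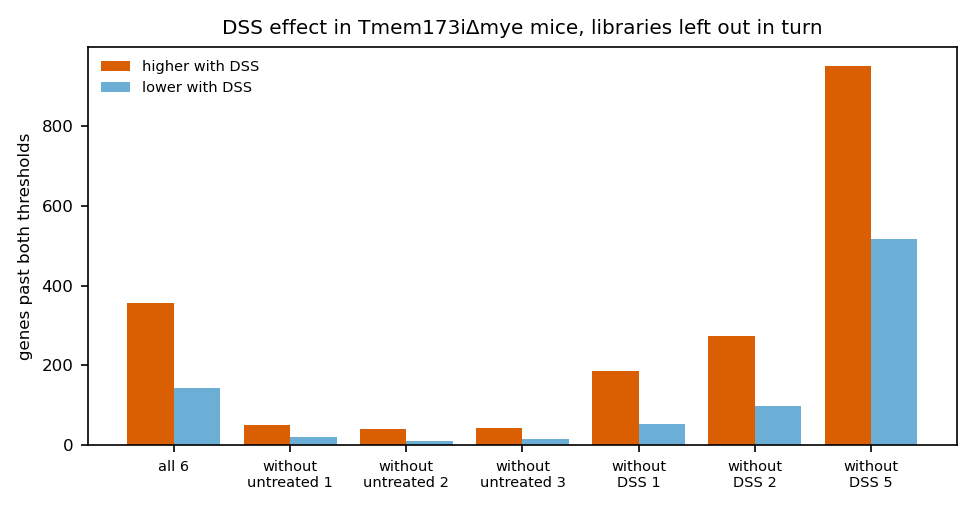
Number of genes called higher or lower for DSS in Tmem173iΔmye colon (bars, y axis) with all 6 libraries and with each library left out in turn (x axis). The total of 501 genes became 1469 without DSS library 5 and 51 to 72 without any one untreated library.

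Chemokines that attract neutrophils were among the largest rises. The list held ligands of CXCR2 and the platelet chemokine Pf4, which is not one of them. Of 7 listed genes 6 were tested and 4 were called, with a median log2 fold change of 4.89 over the 6. The count was 4 without any one DSS library and 3 without any one untreated library. Cxcl1 (ENSMUSG00000029380, chromosome 5, 90891241 to 90893115, GRCm38) was read at 0.425, 0.719 and 0.601 CPM in untreated libraries 1, 2 and 3 and at 12, 12.4 and 15.8 CPM in DSS libraries 1, 2 and 5 (log2 fold change 4.51, SE 0.36, edgeR adjusted p = 0.000619). Cxcl2 (ENSMUSG00000058427, chromosome 5, 90903871 to 90905938) went from 0.364, 0.18 and 0.421 CPM to 13.3, 17.7 and 7.34 CPM (log2 fold change 5.28, SE 0.49, edgeR adjusted p = 0.000769). Cxcl5, a chemokine that epithelium and stroma also make, reached 39.7, 27.8 and 47.1 CPM in the DSS libraries after 1.33, 0.239 and 0.781 CPM in the untreated ones (log2 fold change 5.59, SE 0.49, edgeR adjusted p = 0.000769). The 3 colitic libraries were high for each of these genes, with library 5 the highest for Cxcl1 and Cxcl5 and the lowest for Cxcl2. Cxcl3 had 2 counts in the untreated libraries together and 196 in the DSS libraries, a ratio of 104.8 (95% exact interval 28.6 to 871, counting error only), with 4.85, 6.84 and 1.09 CPM in DSS libraries 1, 2 and 5. The platelet chemokines did not pass the test: Pf4 had a log2 fold change of 0.68 (SE 0.32), and Ppbp had 2 counts without and 20 with DSS.

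Cxcl1, Cxcl2 and Cxcl3 lie in one cluster on chromosome 5 and each rose with DSS, so their promoters are shown. The table of RefSeq promoters used here (GRCm38.p6) held 5 of the 6 genes, and 3 of the 5 (60.0%) held the NF-κB motif within 250 bases before the RefSeq start site on either strand, against 3.9% of 32851 promoters. Capitals mark the match, which was the same 11 bases in each gene. The stretches shown are chr5:90891095-90891240 (plus strand), chr5:90903749-90903870 (plus strand) and chr5:90785951-90786100 (plus strand), 5′ to 3′ on the gene's strand. Here and below a stretch ends just before the RefSeq start site, or earlier where the deposited table places the gene's start earlier (4 bases for Cxcl1, 28 for Cxcl2).
Cxcl1: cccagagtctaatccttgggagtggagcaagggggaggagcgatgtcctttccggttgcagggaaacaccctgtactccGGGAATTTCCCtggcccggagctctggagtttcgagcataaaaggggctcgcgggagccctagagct
Cxcl2: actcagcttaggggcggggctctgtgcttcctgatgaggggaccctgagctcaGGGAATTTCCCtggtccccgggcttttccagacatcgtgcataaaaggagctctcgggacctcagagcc
Cxcl3: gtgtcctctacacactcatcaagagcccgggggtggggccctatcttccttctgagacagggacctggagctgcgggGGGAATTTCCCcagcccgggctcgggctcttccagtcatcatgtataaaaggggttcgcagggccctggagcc
The first base of the match is 67, 69 and 73 bases from the 3′ end of the stretch of Cxcl1, Cxcl2 and Cxcl3, the last base counting as 1. A match is a description of letters and not evidence of binding.

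Neutrophil transcripts rose with these chemokines. Of 22 listed neutrophil genes 21 were tested, 10 were called higher and none lower, and their median log2 fold change was 2.88. The medians against the untreated mean were 3.47, 3.23 and 1.38 in DSS libraries 1, 2 and 5, so library 5 carried the smallest rise. The 10 became 6, 7 and 16 without DSS library 1, 2 or 5, and 2, 2 and 1 without untreated library 1, 2 or 3. S100a8 and S100a9 encode the subunits of calprotectin, which neutrophils carry in bulk. S100a8 (ENSMUSG00000056054, chromosome 3, 90668978 to 90670035) was read at 0.607, 0.599 and 0.18 CPM without DSS and at 12.4, 26.1 and 5.46 CPM with DSS (log2 fold change 4.96, SE 0.66, edgeR adjusted p = 0.00643). S100a9 was read at 0.789, 1.32 and 0.24 CPM and 21.8, 28 and 4.55 CPM (log2 fold change 4.52, SE 0.73, edgeR adjusted p = 0.0145). For both genes DSS library 2 was the highest and library 5 the lowest, and every colitic value exceeded every untreated value. Ltf, the lactoferrin gene of secondary granules, ran the other way across the DSS libraries, with 16.5, 9.08 and 30.5 CPM after 0.91, 0.719 and 0.962 CPM in the untreated ones (log2 fold change 4.42, SE 0.48, edgeR adjusted p = 0.00212). Ly6g also peaked in library 5, at 217, 101 and 239 CPM against 38.5, 35.1 and 75.9 CPM (log2 fold change 1.89, SE 0.38, edgeR adjusted p = 0.032). Its untreated level was far above those of S100a8 and S100a9, and which cells carried Ly6g was not tested. Trem1, a receptor that amplifies neutrophil and monocyte activation, stood at 3.85, 4.29 and 0.607 CPM in the DSS libraries and 0.0607, 0.18 and 0.0601 CPM in the untreated ones (log2 fold change 4.75, SE 0.86, edgeR adjusted p = 0.0223). Retnlg, a resistin-like gene of neutrophils, was high in DSS libraries 1 and 2 only, at 12.7, 15.4 and 0.607 CPM against 0.182, 2.75 and 0.721 CPM, and was not called (edgeR adjusted p = 0.197).

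Of 8 genes for colony-stimulating factors and their receptors 2 were called, Csf3 and Csf2rb2, both higher. The count was 1, 1 and 5 without DSS library 1, 2 or 5 and 0, 0 and 0 without untreated library 1, 2 or 3. Csf3, which encodes the granulocyte colony-stimulating factor G-CSF, had no count in any untreated library and 5.56, 10.5 and 1.27 CPM in the DSS libraries, at least 31.8-fold higher when each untreated library is set to a floor of 3 counts (edgeR adjusted p = 0.0137). Its receptor Csf3r had 5.4, 4.91 and 4.27 CPM without and 38.7, 15.8 and 8.86 CPM with DSS, and its adjusted p of 0.0504 lay at the threshold without passing it. Csf2rb2, a signalling chain of the IL-3 receptor family, rose from 9.35, 11 and 10.5 CPM to 61.6, 36.3 and 18 CPM (log2 fold change 1.91, SE 0.38, edgeR adjusted p = 0.0322). Il5ra, the receptor chain of IL-5 on eosinophils and B-1 cells, was at 29.4, 7.84 and 2.25 CPM in DSS libraries 1, 2 and 5 and at 0.303, 0.599 and 0.24 CPM in the untreated ones (log2 fold change 5.08, SE 0.90, edgeR adjusted p = 0.0202). Library 1 was the highest of the 3 for Il5ra and library 5 the lowest. Of 12 listed mast cell and eosinophil genes 11 were tested, and Il5ra was the 1 called. That count was 1 without any one DSS library and 0 without any one untreated library. The median log2 fold change of the list was -0.29, with 4 genes positive and 7 negative. Its medians were 0.72, 0.01 and -1.12 in DSS libraries 1, 2 and 5.

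**Figure D2:**
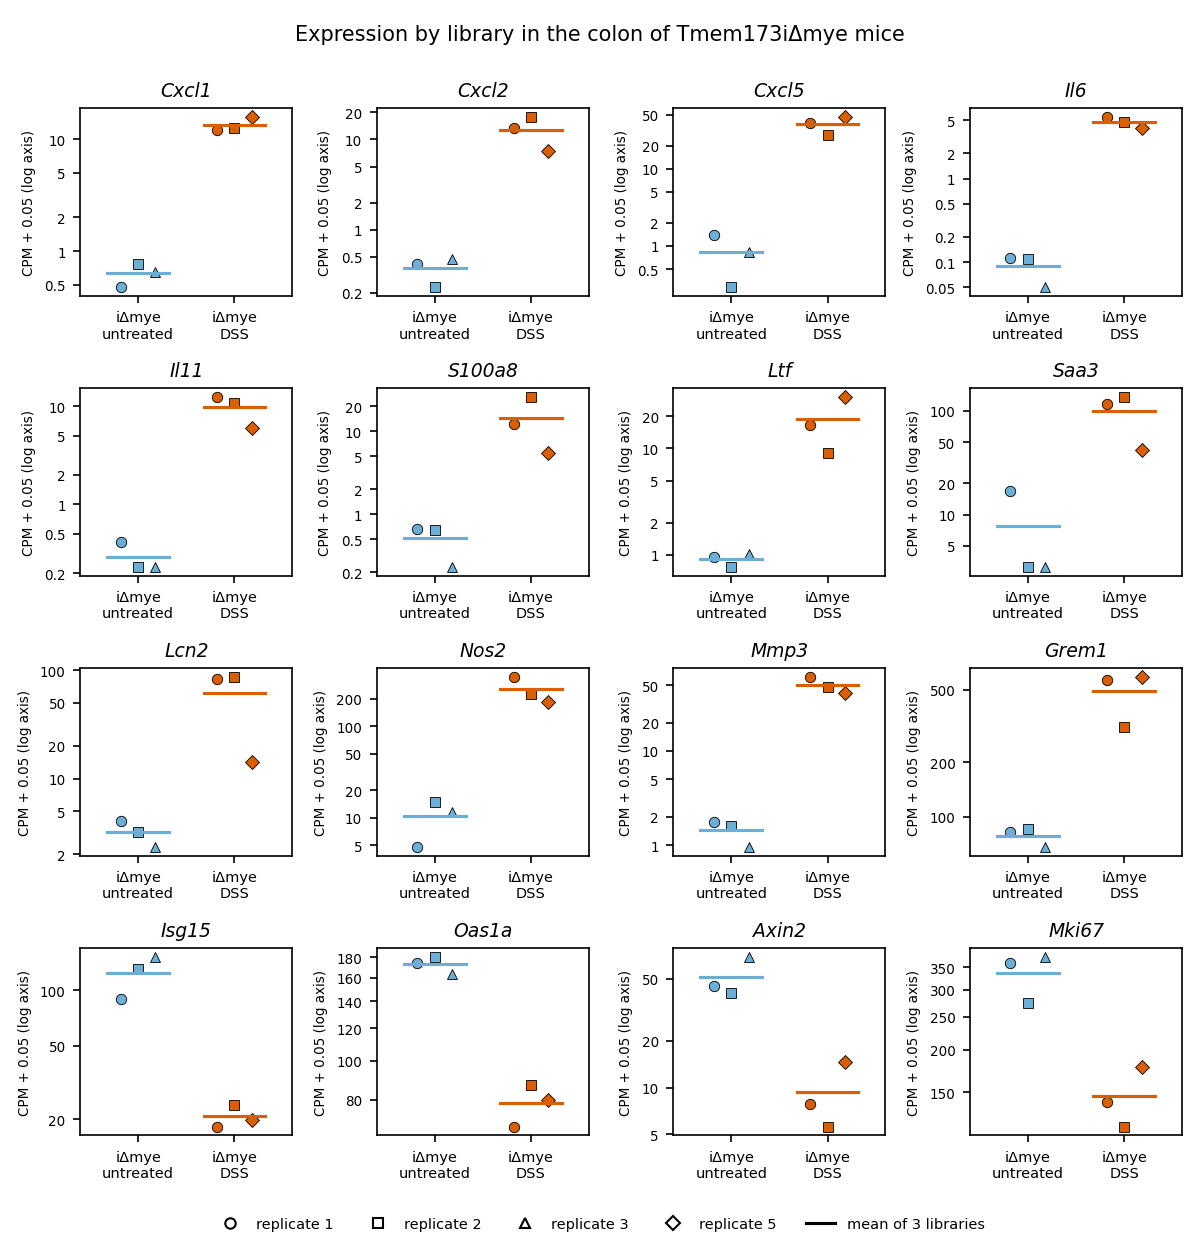
Level of 16 genes in each untreated (libraries 1, 2 and 3) and DSS (libraries 1, 2 and 5) Tmem173iΔmye library, one panel a gene, as CPM plus a small offset on a log axis; points are libraries. Chemokine, cytokine, granulocyte, acute phase and matrix genes are higher in all 3 DSS libraries, and Isg15, Oas1a, Axin2 and Mki67 are lower.

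In the IL-6 family 7 of 10 genes were called, all higher (median log2 fold change 1.45). The 7 became 3, 5 and 8 without DSS library 1, 2 or 5 and 3 without any one untreated library. Il6 itself had 2 counts in the untreated libraries together and 217 in the DSS libraries, a ratio of 116 (95% exact interval 31.7 to 964, counting error only), with 5.42, 4.67 and 4.01 CPM in DSS libraries 1, 2 and 5 (edgeR adjusted p = 0.000814). Il11, a cytokine that acts on stroma and epithelium, was read at 0.364, 0.18 and 0.18 CPM without and 12.4, 10.8 and 5.89 CPM with DSS (log2 fold change 5.28, SE 0.49, edgeR adjusted p = 0.000769). On the receptor side Osmr, the receptor of oncostatin M, rose from 15.3, 18 and 13.5 CPM to 93.8, 68.4 and 73.2 CPM (log2 fold change 2.33, SE 0.22, edgeR adjusted p = 0.000769). The 3 DSS libraries were close to each other for Il6 and Osmr. The shared signal chain Il6st was at 369, 225 and 263 CPM after 146, 130.1 and 119 CPM (log2 fold change 1.11, SE 0.23, edgeR adjusted p = 0.0356), and Lifr had a log2 fold change of 1.15 (SE 0.25, edgeR adjusted p = 0.0462). Socs3, the feedback inhibitor that these cytokines induce, rose from 18.9, 23.2 and 27.5 CPM to 219.9, 133 and 57.1 CPM, with library 1 the highest (log2 fold change 2.55, SE 0.41, edgeR adjusted p = 0.0145).

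In the IL-1 family 5 of 12 tested genes were called, all higher. Leaving out a library gave 5, 5 and 8 without DSS library 1, 2 or 5 and 1, 1 and 0 without untreated library 1, 2 or 3. Il33, an alarmin of stroma and epithelium, stood at 6.01, 7.01 and 6.31 CPM in the untreated and 50.2, 24.3 and 34.8 CPM in the DSS libraries (log2 fold change 2.49, SE 0.29, edgeR adjusted p = 0.00342). Its receptor Il1rl1 was at 63.6, 56.1 and 18.2 CPM with DSS and at 10.4, 7.19 and 6.43 CPM without (log2 fold change 2.52, SE 0.42, edgeR adjusted p = 0.0169). The receptor Il1r1 and the receptor antagonist Il1rn rose by log2 fold changes of 1.49 (SE 0.23) and 1.68 (SE 0.27). Il1b had 7.16, 8.14 and 8.78 CPM without and 60.01, 36.7 and 10.02 CPM with DSS. DSS library 5 lay close to the untreated libraries for Il1b, and the gene was not called (log2 fold change 2.14, SE 0.50, edgeR adjusted p = 0.061). Il18, an epithelial cytokine, ran in the opposite order, with 52.4, 72.7 and 165 CPM in DSS libraries 1, 2 and 5 against 35.4, 32.2 and 24.4 CPM, and missed the threshold by a little (edgeR adjusted p = 0.0533).

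Tnf rose from 3.16, 3.89 and 6.67 CPM to 12.8, 13.4 and 16.1 CPM (log2 fold change 1.62, SE 0.33, edgeR adjusted p = 0.036) and was the one called gene of 20 in its family, where the count was 6 without DSS library 5 and 0 without any other single library. None of the 9 genes of the IL-12 and IL-23 family was called by edgeR, by DESeq2 or by either limma fit, and 2 had an unadjusted p under 0.05. Il12a was read at 0.121, 0.239 and 0.18 CPM without and 1.43, 0.311 and 0.668 CPM with DSS, Il12b at 0.182, 0.958 and 0.24 CPM and 2.99, 1.49 and 0.243 CPM, and Il23a at 0.182, 0.12 and 0.301 CPM and 0.214, 0.124 and 0.243 CPM. The colitic and untreated values overlapped for Il12b and Il23a and did not for Il12a, all of them under 3 CPM, and their edgeR adjusted p were 0.215, 0.374 and 0.991. In the list of Th17, IL-22 and IL-10 cytokines 1 of 15 tested genes was called: Il19, of the IL-10 family, had no count in the untreated libraries and 0.784, 0.871 and 0.546 CPM in the DSS libraries, at least 4.03-fold higher against the same floor of 3 counts in each untreated library. Il19 was called in 1 of the 6 fits with a library left out.

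Acute phase genes formed the second large group. Of 19 genes 11 were called, all higher, with a median log2 fold change of 2.40. The 11 became 9, 9 and 14 without DSS library 1, 2 or 5 and 6, 3 and 3 without untreated library 1, 2 or 3. Lcn2, the siderophore-binding lipocalin used as a colitis marker, was at 4.005, 3.17 and 2.28 CPM in untreated libraries 1, 2 and 3 and at 83.2, 86.8 and 14.3 CPM in DSS libraries 1, 2 and 5 (log2 fold change 4.28, SE 0.60, edgeR adjusted p = 0.00809). Library 5 was far below the other two colitic libraries for Lcn2 and above every untreated one. Serpina3n, a serine protease inhibitor, went from 64.1, 27.9 and 20.5 CPM to 669.7, 668 and 227 CPM (log2 fold change 3.79, SE 0.52, edgeR adjusted p = 0.00734). Saa3, a serum amyloid A gene expressed in tissues, was at 17, 3.05 and 3.07 CPM without and 118, 137 and 41.6 CPM with DSS (log2 fold change 3.67, SE 0.69, edgeR adjusted p = 0.026). The order differed for Lrg1, a leucine-rich glycoprotein of TGF-β signalling, whose values of 106, 47.3 and 110.1 CPM in DSS libraries 1, 2 and 5 were lowest in library 2 (untreated 8.56, 6.05 and 5.17 CPM, log2 fold change 3.73, SE 0.36, edgeR adjusted p = 0.000829). C3 rose as well, from 310.3, 247 and 305 CPM to 1364, 863 and 642 CPM (log2 fold change 1.73, SE 0.28, edgeR adjusted p = 0.0147). Hp and Saa1 were not called: haptoglobin (Hp) was read at 42.4, 32.7 and 10.8 CPM without and 154, 99.4 and 20.8 CPM with DSS, and Saa1 at 169, 219 and 231 CPM and 381, 196 and 697 CPM, both with overlapping groups.

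The C/EBP factors that drive many acute phase genes were measured too. Cebpd rose from 27.4, 22 and 35.5 CPM to 101, 64.1 and 83.2 CPM (log2 fold change 1.55, SE 0.25, edgeR adjusted p = 0.0137). Cebpb stood at 13.1, 12.9 and 19.2 CPM and 39.5, 27.2 and 30.7 CPM without overlap, and its adjusted p of 0.0525 (edgeR) missed the threshold. The promoter table held 9 of the 11 called acute phase genes, and 6 of their 10 promoters (60.0%) held the C/EBP letters TTGCNNAA within 250 bases before the start site on either strand, against 9.56% of all 32851 promoters. The stretch of Saa3, chr7:46715701-46715826 (minus strand) in GRCm38.p6, is shown because this gene was among the largest rises of the group and holds 1 match, in capitals, which begins 75 bases from the 3′ end of the stretch. The stretch ends 24 bases before the RefSeq start site. The letters describe the window and not a bound factor.
Saa3: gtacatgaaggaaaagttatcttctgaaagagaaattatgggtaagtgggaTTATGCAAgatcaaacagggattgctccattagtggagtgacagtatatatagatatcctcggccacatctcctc

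The iron and complement lists share members with the acute phase list. Of 18 iron and heme genes 5 were called, all higher, a number that was 3, 4 and 7 without DSS library 1, 2 or 5 and 1, 1 and 1 without untreated library 1, 2 or 3. Of the 5, 3 are on the acute phase list too, Steap4 and Lcn2 included. Steap4, a metalloreductase, rose from 11.3, 23 and 13.1 CPM to 86.6, 74 and 104 CPM (log2 fold change 2.48, SE 0.29, edgeR adjusted p = 0.00342) and the ferritin heavy chain Fth1 from 764, 921 and 809.9 CPM to 1848, 1561 and 1819 CPM (log2 fold change 1.06, SE 0.19, edgeR adjusted p = 0.0225). Hmox1, which degrades heme, was at 6.67, 9.46 and 7.27 CPM without and 25.8, 22.3 and 16.7 CPM with DSS (log2 fold change 1.46, SE 0.27, edgeR adjusted p = 0.0237). Of 19 complement genes 5 were called, all higher, and the number was 4, 5 and 11 without DSS library 1, 2 or 5 and 0, 0 and 0 without untreated library 1, 2 or 3. Of these 1, C3, is also an acute phase gene. Cd55, a membrane inhibitor, reached 181, 97.1 and 102 CPM after 41.1, 56 and 47.7 CPM (log2 fold change 1.39, SE 0.27, edgeR adjusted p = 0.0268).

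Of 15 enzymes that make oxidants 3 were called, all higher. The number higher was 3, 3 and 7 without DSS library 1, 2 or 5 and 2, 2 and 2 without untreated library 1, 2 or 3, with 1 lower without DSS library 2 or 5. Nos2, inducible nitric oxide synthase, went from 4.73, 15 and 11.4 CPM in untreated libraries 1, 2 and 3 to 349, 227 and 186 CPM in DSS libraries 1, 2 and 5 (log2 fold change 4.61, SE 0.43, edgeR adjusted p = 0.000769). The epithelial hydrogen peroxide source Duox2 rose from 203, 215 and 242 CPM to 1237, 691 and 559 CPM (log2 fold change 1.91, SE 0.29, edgeR adjusted p = 0.0123), and its maturation factor Duoxa2 from 18.2, 28.4 and 25.9 CPM to 152, 89.8 and 99.4 CPM (log2 fold change 2.23, SE 0.26, edgeR adjusted p = 0.00352). All 3 were highest in DSS library 1. Among the genes that were not called, Cyba, a subunit of the phagocyte oxidase, had a log2 fold change of 0.58 (SE 0.24).

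Among 22 monocyte and macrophage genes 5 were called, all higher, and the median log2 fold change was 0.98. The 5 became 4, 3 and 13 without DSS library 1, 2 or 5 and 1, 1 and 1 without untreated library 1, 2 or 3. The medians by library were 1.25, 0.93 and 0.20 in DSS libraries 1, 2 and 5. Chil3, a chitinase-like protein of activated macrophages and neutrophils, was even across the DSS libraries, at 42.4, 42 and 54.1 CPM after 6.19, 3.71 and 3.55 CPM (log2 fold change 3.36, SE 0.28, edgeR adjusted p = 0.000679). Fcgr3, an activating Fc receptor, rose from 11.9, 17.4 and 15.8 CPM to 48.5, 45.9 and 31.9 CPM (log2 fold change 1.48, SE 0.24, edgeR adjusted p = 0.0155), and the mannose receptor Mrc1 had a log2 fold change of 1.1 (SE 0.23). C1qa and Csf1r, also macrophage genes, were not called. C1qa was at 38.2, 47.3 and 67.5 CPM without and 93.5, 82.5 and 36.5 CPM with DSS, and Csf1r at 45, 47.9 and 53.1 CPM and 168, 103 and 50.1 CPM. DSS libraries 1 and 2 lay above the untreated range for both, and library 5 within it for Csf1r and just below it for C1qa. One dendritic cell gene of 13, the lectin Clec10a, was called (log2 fold change 1.75, SE 0.37, edgeR adjusted p = 0.0417). The list's medians were 1.62, 0.88 and -0.25 in DSS libraries 1, 2 and 5, and its count was 4 without DSS library 5 and 0 without any other single library.

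Chemokines for monocytes and eosinophils rose in 3 of 14 cases, a count that was 1, 1 and 3 without DSS library 1, 2 or 5 and 0, 0 and 0 without untreated library 1, 2 or 3. Ccl2, the ligand of CCR2 on monocytes, went from 2.06, 2.46 and 3.13 CPM to 10.3, 9.27 and 8.5 CPM (log2 fold change 1.87, SE 0.31, edgeR adjusted p = 0.0165). Ccl11, the eosinophil attractant eotaxin, was at 3.34, 6.47 and 4.09 CPM and 30.7, 22.3 and 9.53 CPM (log2 fold change 2.17, SE 0.43, edgeR adjusted p = 0.0322), and Ccl22, a product of dendritic cells and macrophages, at 0.789, 1.62 and 0.902 CPM and 13, 9.08 and 2.67 CPM (log2 fold change 2.89, SE 0.58, edgeR adjusted p = 0.0319). The B cell attractant Cxcl13 rose in all 3 libraries from 9.95, 17.4 and 9.62 CPM to 131, 77.5 and 44.6 CPM (log2 fold change 2.77, SE 0.39, edgeR adjusted p = 0.0083). Of the CXCR3 ligands, which interferon-γ induces, Cxcl10 fell from 20.6, 34.1 and 24.6 CPM to 12.8, 11.4 and 10.1 CPM (log2 fold change -1.22, SE 0.25, edgeR adjusted p = 0.0387). Cxcl9 was at 54.2, 85.5 and 55 CPM and 18.7, 46.9 and 11.9 CPM and was not called, although the groups did not overlap. None of 18 T and NK cell genes and none of 14 B and plasma cell genes was called by edgeR, against 3 and 4 at an unadjusted p under 0.05, 1 and 1 by DESeq2 and none by either limma fit. Without DSS library 2 edgeR called 3 of the B and plasma cell genes higher, and without DSS library 5 it called 1 of the T and NK cell genes lower. The median log2 fold change of the B and plasma cell genes was 1.06 with all libraries and -0.06 without DSS library 1. Gzmb, a granzyme of cytotoxic cells, was at 33.9, 76.9 and 49.4 CPM without and 14.1, 27.2 and 2.91 CPM with DSS (edgeR adjusted p = 0.166), and Jchain, of plasma cells, at 491, 540.5 and 426 CPM and 893, 263 and 186 CPM.

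Of 21 matrix proteases and their inhibitors 11 were called higher, none lower and 10 neither, with a median log2 fold change of 1.67. The 11 became 7, 7 and 16 without DSS library 1, 2 or 5 and 4, 1 and 2 without untreated library 1, 2 or 3. Mmp3, stromelysin 1 (ENSMUSG00000043613, chromosome 9, 7445822 to 7455975), was at 1.7, 1.56 and 0.902 CPM in the untreated and 61.6, 47.5 and 41.5 CPM in the DSS libraries (log2 fold change 5.17, SE 0.32, edgeR adjusted p = 0.000229). Mmp10, stromelysin 2, was at 1.82, 1.32 and 0.842 CPM and 64.3, 59.7 and 13.1 CPM (log2 fold change 5.1, SE 0.60, edgeR adjusted p = 0.00342), and the collagenase Mmp13 at 8.44, 10.5 and 6.67 CPM and 65.4, 68.1 and 14.9 CPM (log2 fold change 2.53, SE 0.48, edgeR adjusted p = 0.0267). Mmp3 was near even across the colitic libraries, while library 5 held several-fold less Mmp10 and Mmp13 than libraries 1 and 2. Timp1, which inhibits these proteases, rose from 5.89, 1.32 and 2.35 CPM to 19.8, 12.1 and 14.6 CPM (log2 fold change 2.28, SE 0.49, edgeR adjusted p = 0.043). Plaur, the urokinase receptor, rose from 6.86, 9.22 and 8.42 CPM to 58.9, 42.2 and 23.8 CPM (log2 fold change 2.35, SE 0.33, edgeR adjusted p = 0.00761). Mmp2, the gelatinase of fibroblasts, had 48.5, 59.8 and 55.7 CPM and 191, 168 and 69.7 CPM and was not called (edgeR adjusted p = 0.0612).

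Stroma, vessels and glia contributed fewer calls, although nearly all their listed genes had a positive log2 fold change. It was positive for 23 of 24 fibroblast and matrix, 18 of 18 endothelial and 16 of 16 neuron and glia genes. Over all tested genes 51.6% were positive. The medians of the 3 lists were 0.97, 1.03 and 0.85. The DSS and untreated values did not overlap for 21, 16 and 11 of these genes, against 21.5% of all tested genes. Of 24 fibroblast and matrix genes 4 were called, all higher. That count was 4, 6 and 13 without DSS library 1, 2 or 5 and 2, 1 and 1 without untreated library 1, 2 or 3. Grem1, a BMP antagonist of the fibroblasts under the crypts, went from 82.7, 85 and 67.9 CPM to 566, 312 and 591 CPM (log2 fold change 2.64, SE 0.27, edgeR adjusted p = 0.00166). Thbs1 (thrombospondin 1) had a log2 fold change of 1.9 (SE 0.27) and the proteoglycan gene Dcn one of 1.36 (SE 0.22), both called. Col3a1, a fibrillar collagen, stood at 599.6, 440.5 and 596 CPM and 1429, 879.9 and 1090 CPM without overlap, and its edgeR adjusted p of 0.0533 missed the threshold. Of 18 endothelial genes 3 were called with all 6 libraries, each an adhesion molecule by which leukocytes leave the blood. The 3 became 2, 3 and 14 without DSS library 1, 2 or 5 and 0, 0 and 1 without untreated library 1, 2 or 3. Selp (P-selectin) rose from 0.789, 0.539 and 1.44 CPM to 21.2, 14.1 and 7.41 CPM (log2 fold change 3.93, SE 0.51, edgeR adjusted p = 0.00548) and Vcam1 from 15.2, 22.9 and 15.3 CPM to 92.6, 61.5 and 30.4 CPM (log2 fold change 1.79, SE 0.36, edgeR adjusted p = 0.0349). Sele (E-selectin) had 1 count without and 101 with DSS, a ratio of 108 (95% exact interval 18.9 to 4308, counting error only). Of 16 genes of enteric neurons and glia 3 were called, all higher. The glial filament Gfap rose from 3.94, 2.87 and 4.15 CPM to 20.9, 13.2 and 16.3 CPM (log2 fold change 2.19, SE 0.30, edgeR adjusted p = 0.00736). The neuronal receptor gene Ret had a log2 fold change of 1.31 (SE 0.24) and was called. Gfap was called in 3 and Ret in 1 of the 6 fits with a library left out.

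**Figure D3:**
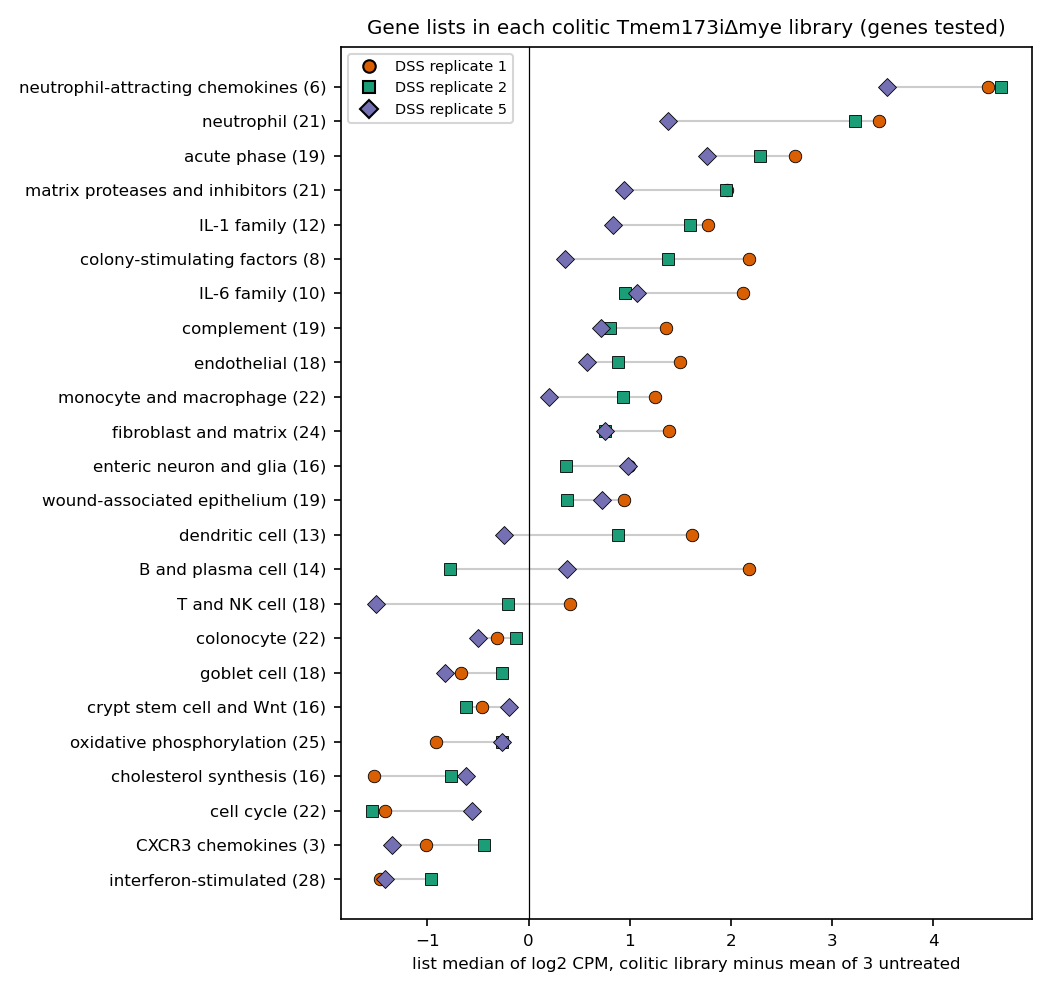
Median log2 ratio to the untreated mean (x axis) of 24 gene lists (y axis) in DSS libraries 1, 2 and 5 of the Tmem173iΔmye mice, one marker a library. For neutrophil genes the medians are 3.47, 3.23 and 1.38, and for interferon-stimulated genes all 3 markers lie below 0.

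Interferon-stimulated genes fell in the colitic Tmem173iΔmye colon. Of 28 genes 17 were called lower and none higher, with a median log2 fold change of -1.27 and medians of -1.47, -0.97 and -1.42 in DSS libraries 1, 2 and 5. The 17 became 8, 16 and 18 without DSS library 1, 2 or 5 and 5, 3 and 4 without untreated library 1, 2 or 3. Isg15, a ubiquitin-like protein (ENSMUSG00000035692, chromosome 4, 156199424 to 156200818), was at 89.8, 129 and 152 CPM in untreated libraries 1, 2 and 3 and at 18.1, 23.9 and 19.9 CPM in DSS libraries 1, 2 and 5 (log2 fold change -2.59, SE 0.24, edgeR adjusted p = 0.000769). Oas1a, a sensor of double-stranded RNA, fell from 174, 180.4 and 163 CPM to 68.6, 87 and 79.8 CPM (log2 fold change -1.14, SE 0.18, edgeR adjusted p = 0.0146), and Ifit1bl1, of the family that binds foreign RNA caps, from 542, 767 and 768 CPM to 279.9, 329.7 and 338 CPM (log2 fold change -1.14, SE 0.21, edgeR adjusted p = 0.0264). The colitic libraries were close to each other for all 3 genes. The apolipoprotein L genes Apol9a and Apol9b, which interferon induces, were among the 12 largest falls, at log2 fold changes of -2.63 (SE 0.32) and -3.04 (SE 0.37). They are close copies of each other, so the split of reads between them is uncertain. Ifit2 was at 258, 571 and 296 CPM and 231, 385 and 81.8 CPM and did not pass. None of 15 interferon-inducible GTPases was called by edgeR, by DESeq2 or by either limma fit, and 5 had an unadjusted p under 0.05. Without DSS library 2 edgeR called 6 of them lower. Gbp2, a guanylate-binding protein, was at 237, 512 and 313 CPM and 182, 431 and 178 CPM, and Igtp at 206, 268 and 318 CPM and 86.2, 255 and 73.9 CPM, both with overlapping groups. Antigen presentation genes did not pass the test. The class I light chain B2m was at 1704, 2852 and 1916 CPM and 1688, 2230 and 1942 CPM and the class II invariant chain Cd74 at 881, 1336 and 2164 CPM and 2163, 1906 and 1101 CPM, and none of 23 MHC genes was called by edgeR, by DESeq2 or by either limma fit, with 2 at an unadjusted p under 0.05 and 1 class II gene called higher by edgeR without DSS library 2.

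Promoters are shown for members of this group because the list fell together and shares a known response element. The same promoter table held 19 of the 28 genes, and 11 of their 21 promoters (52.4%) held the core of the interferon response element, a pair of GAAA repeats with 2 bases of any kind between them, within 250 bases before the start site on either strand, against 2.98% of 32851 promoters. Overlapping matches were counted as 1 and are in capitals. The stretches are chr4:156200819-156200968 (minus strand), chr19:34640739-34640870 (plus strand) and chr5:120907526-120907675 (minus strand), 5′ to 3′ on the gene's strand, and Ifit1, another member of the list, is shown for its 2 matches.
Isg15: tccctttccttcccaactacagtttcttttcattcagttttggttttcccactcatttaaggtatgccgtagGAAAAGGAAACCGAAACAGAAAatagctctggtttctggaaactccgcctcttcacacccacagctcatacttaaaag
Ifit1: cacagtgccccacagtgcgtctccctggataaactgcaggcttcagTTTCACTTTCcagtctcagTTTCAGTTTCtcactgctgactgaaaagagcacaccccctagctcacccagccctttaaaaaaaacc
Oas1a: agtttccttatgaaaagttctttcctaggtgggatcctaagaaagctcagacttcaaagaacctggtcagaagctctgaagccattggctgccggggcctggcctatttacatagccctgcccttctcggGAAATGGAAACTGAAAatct
Counted in the same way, the matches begin 78 bases from the 3′ end of the stretch of Isg15, 86 and 67 from that of Ifit1, which stops 18 bases before the RefSeq start site, and 20 from that of Oas1a. They describe the letters in these windows and no cause of the fall.

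Cell division transcripts were lower. Of 22 cell cycle genes 6 were called, all lower, and the median log2 fold change was -1.13. The medians were -1.42, -1.55 and -0.56 in DSS libraries 1, 2 and 5. The count was 18 without DSS library 5 and 0 without any other single library; with all libraries it was 12 by DESeq2, 0 by limma on log2(FPKM + 0.1), and 18 genes had an unadjusted p under 0.05 by edgeR. Mki67, the Ki-67 gene, was at 361, 275 and 376 CPM without and 140.5, 119 and 179 CPM with DSS (log2 fold change -1.21, SE 0.23, edgeR adjusted p = 0.026). Top2a, a topoisomerase of dividing cells, fell from 271, 231 and 274 CPM to 86.6, 77.8 and 134 CPM (log2 fold change -1.38, SE 0.24, edgeR adjusted p = 0.0185). Pcna, of the replication fork, was lower in DSS libraries 1 and 2 but not in library 5, at 49, 53.3 and 112 CPM against 102, 119 and 112 CPM, and was not called. Of 16 crypt stem cell and Wnt genes 3 were called, all lower. The number lower was 1, 2 and 4 without DSS library 1, 2 or 5 and 0, 0 and 0 without untreated library 1, 2 or 3, with 1 higher without DSS library 5. Lgr5, the receptor that marks crypt base stem cells, was at 10.4, 10.4 and 12.3 CPM and 0.998, 0.311 and 2.19 CPM (log2 fold change -3.23, SE 0.55, edgeR adjusted p = 0.0171), and Axin2, a feedback target of Wnt signalling, at 45, 40.5 and 69.5 CPM and 7.77, 5.54 and 14.6 CPM (log2 fold change -2.47, SE 0.37, edgeR adjusted p = 0.0103). Ephb3, another Wnt target, had a log2 fold change of -1.53 (SE 0.33). In the same tissue Grem1 rose as given above, Smad6, an inhibitor that BMP signalling induces, fell from 34.2, 26.3 and 31 CPM to 11.6, 10.02 and 12.9 CPM (log2 fold change -1.41, SE 0.22, edgeR adjusted p = 0.0137), and the activin subunit Inhba rose from 3.82, 2.33 and 2.52 CPM to 21.2, 18.6 and 8.26 CPM (log2 fold change 2.46, SE 0.40, edgeR adjusted p = 0.0147).

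Few markers of the differentiated epithelium were called, as among all tested genes, of which 2.08% were called. The DSS and untreated values did not overlap for 8 of 22 colonocyte and 6 of 18 goblet cell genes, against 21.5% of all tested genes. Of 22 colonocyte genes 1 was called (2 higher and 2 lower without DSS library 5, and 0 without any one untreated library), the water channel Aqp8, which fell from 576, 664 and 499 CPM to 239, 135 and 206 CPM (log2 fold change -1.59, SE 0.25, edgeR adjusted p = 0.0129). Slc26a3, the chloride and bicarbonate exchanger, was at 935, 757 and 599 CPM without and 429, 525 and 239.7 CPM with DSS. The groups did not overlap and the test was not passed (log2 fold change -0.94, SE 0.30, edgeR adjusted p = 0.151). Lypd8, a secreted protein that keeps flagellated bacteria off the epithelium, was at 8261, 9472 and 7844 CPM and 7885, 8285 and 11600 CPM (log2 fold change 0.12, SE 0.21). The mucin gene Muc2 was at 13920, 13690 and 11040 CPM and 10190, 12490 and 5697 CPM (log2 fold change -0.45, SE 0.28), and the goblet cell lectin Zg16 at 1660, 2965 and 1680 CPM and 2529, 1829 and 2006 CPM. The goblet cell list had 3 calls without DSS library 5 and 0 without any other single library. With all 6 libraries the single called gene of its 18, the antimicrobial ribonuclease Ang4, had 549, 10.5 and 16.3 CPM in the untreated libraries, so library 1 alone held nearly all of it, and 0.499, 1.93 and 0 CPM in the DSS libraries. Sectm1b, Slc6a14 and Fgd4 had log2 fold changes of -0.47 (SE 0.20), -0.14 (SE 0.28) and -0.36 (SE 0.23) and were not called. The tight junction gene Cldn15 fell from 156, 121 and 105 CPM to 28.7, 55.3 and 17.5 CPM (log2 fold change -1.92, SE 0.37, edgeR adjusted p = 0.0267), and the glutathione transferase Gstm3 from 43.4, 29.2 and 37.9 CPM to 3.42, 7.96 and 8.44 CPM (log2 fold change -2.48, SE 0.34, edgeR adjusted p = 0.00736).

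Wound epithelium genes rose in 4 of 19 tested cases and fell in 1. The rises numbered 4, 6 and 5 without DSS library 1, 2 or 5 and 3, 2 and 1 without untreated library 1, 2 or 3, with 1 fall each time. Ereg, the EGF receptor ligand epiregulin, went from 7.46, 12.3 and 5.35 CPM to 115, 93 and 90.9 CPM (log2 fold change 3.57, SE 0.31, edgeR adjusted p = 0.000766). Sprr2h, of the cornified envelope family, had 3 counts without and 122 with DSS, a ratio of 43.5 (95% exact interval 14.5 to 214, counting error only), and 2.71, 2.3 and 2.85 CPM in DSS libraries 1, 2 and 5. Its family members share sequence, so its reads may include theirs. Prss22, a serine protease, had 1 count without and 439 with DSS, a ratio of 469 (95% exact interval 83.8 to 18580, counting error only), and stood at 13, 9.52 and 6.25 CPM in the DSS libraries. Ly6g6c fell from 11.5, 7.01 and 7.996 CPM to 0.998, 1.06 and 0.85 CPM (log2 fold change -3.19, SE 0.36, edgeR adjusted p = 0.00319). Ptgs2, the inducible cyclooxygenase, rose from 9.65, 11.6 and 9.02 CPM to 50.1, 47.4 and 20.03 CPM (log2 fold change 1.96, SE 0.33, edgeR adjusted p = 0.0178). Among metabolic genes Dio2, which activates thyroid hormone, rose from 0.303, 0.599 and 1.26 CPM to 13, 22.8 and 4.43 CPM (log2 fold change 4.2, SE 0.67, edgeR adjusted p = 0.0142). Slc10a2, the bile acid transporter of the ileum, rose from 0.85, 3.95 and 0.601 CPM to 14.9, 60.9 and 11.4 CPM, most in DSS library 2 (log2 fold change 4.004, SE 0.81, edgeR adjusted p = 0.0338). Of the peptide genes Tac1, the substance P precursor, rose from 12.9, 15.9 and 9.2 CPM to 47.2, 45.2 and 127 CPM, most in library 5 (log2 fold change 2.52, SE 0.41, edgeR adjusted p = 0.0145). Tac1 was the 1 called gene of 16 on the enteroendocrine list. The median log2 fold change of that list was -0.11, with 7 genes positive and 9 negative.

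The colitic libraries differed in the size of these changes. Among the 357 genes called higher the smallest rise was in DSS library 5 for 187 (52.4%), in library 2 for 144 and in library 1 for 26, and the median log2 ratios to the untreated mean were 2.09, 1.78 and 1.58 in libraries 1, 2 and 5. Among the 144 lower genes the smallest fall was in library 5 for 77, in library 2 for 50 and in library 1 for 17. Osr2, a transcription factor of mesenchyme, was an extreme case, at 29, 41.2 and 0.911 CPM in DSS libraries 1, 2 and 5 after 0.0607, 0.479 and 0.721 CPM. Of 91 called genes named here, 23 were called in each of the 6 fits with a library left out. They included Cxcl1, Cxcl2, Cxcl5, Il6, Il11, Osmr, Ltf, Chil3, Nos2, Duoxa2, Mmp3, Grem1, Ereg, Lrg1 and Steap4 among the rises, and Isg15, Apol9a, Ly6g6c and Pdzd7 among the falls.

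The same treatment in Tmem173fl/fl mice gave the reference for these changes. There DSS called 5422 of 24102 genes (22.5%), against 501 in the Tmem173iΔmye mice. Of the 501 genes, 449 (89.6%) were also called in the same direction in Tmem173fl/fl, which is 8.28% of the 5422. The genotypes share no libraries, and the count of 501 rests on the spread of the 3 colitic libraries as well as on the size of the changes. The difference of the DSS effects was therefore tested by the interaction term over all 12 libraries, which called 614 genes (2.55%). The log2 fold change was higher in Tmem173iΔmye for 225 of them and lower for 389. This number was also unstable. It was 1728 without DSS Tmem173iΔmye library 1 and 424 and 539 without libraries 2 and 5, and 294, 395 and 563 without DSS Tmem173fl/fl library 1, 2 or 3. Without untreated library 1, 2 or 3 it was 314, 339 and 311 in Tmem173iΔmye and 267, 314 and 313 in Tmem173fl/fl. The pancreatic transcripts, high in libraries of both genotypes as given above, and the Xist and Y-linked pattern entered this comparison, and their part in it was not tested.

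Part of the matrix and stromal genes rose less in the Tmem173iΔmye mice. Of 21 matrix proteases and inhibitors 12 had a lower log2 fold change by the interaction test, and of 24 fibroblast and matrix genes 14 did. With 1 of the 12 libraries left out the counts ran from 6 (without untreated Tmem173fl/fl library 2 or DSS Tmem173fl/fl library 1) to 15 (without DSS Tmem173iΔmye library 1) and from 6 (without untreated Tmem173fl/fl library 3) to 18 (without DSS Tmem173iΔmye library 1). Lox, which crosslinks collagen, was at 7.71, 9.7 and 9.5 CPM and, with DSS, 40.8, 52.9 and 51.5 CPM in Tmem173iΔmye, and at 5.23, 6.03 and 8.46 CPM and 329, 319.6 and 243 CPM in Tmem173fl/fl (difference of the log2 fold changes -3.06, SE 0.29, edgeR adjusted p = 0.000756). The colitic values of the genotypes did not overlap. Adamts1, a matrix protease, rose by a log2 fold change of 3.23 (SE 0.21) in Tmem173iΔmye and 5.75 (SE 0.21) in Tmem173fl/fl (difference of the log2 fold changes -2.46, SE 0.25, edgeR adjusted p = 0.000756). Mmp10 reached 428, 504 and 428 CPM in the colitic Tmem173fl/fl libraries, against 64.3, 59.7 and 13.1 CPM in Tmem173iΔmye (difference of the log2 fold changes -4.12, SE 0.71, edgeR adjusted p = 0.00929). Serpine2, Kcnj8 and Hmox1 differed in the same direction, by -2.98 (SE 0.36), -2.35 (SE 0.23) and -3.4 (SE 0.50) on the log2 scale.

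Inflammatory genes differed by member. Of the 6 tested genes of the chemokine list 2 had a lower log2 fold change in Tmem173iΔmye by the interaction test, the CXCR2 ligand Cxcl1 (difference -3.38, SE 0.56) and the platelet chemokine Pf4 (-3.5, SE 0.51). None of the 21 neutrophil genes was called there by edgeR, although 10 had an unadjusted p under 0.05 and up to 3 were called with 1 library left out, so the smaller log2 fold changes of S100a8 and S100a9 in Tmem173iΔmye were not separated from the spread (edgeR adjusted p = 0.303 and 0.0869). Lcn2 reached 858, 1019 and 424 CPM in colitic Tmem173fl/fl and 83.2, 86.8 and 14.3 CPM in colitic Tmem173iΔmye (difference of the log2 fold changes -4.09, SE 0.75, edgeR adjusted p = 0.0134). Cebpb was at 142, 109.8 and 106 CPM and 39.5, 27.2 and 30.7 CPM (difference of the log2 fold changes -2.27, SE 0.36, edgeR adjusted p = 0.00712), and Ccl2 at 57.1, 38.6 and 20.5 CPM and 10.3, 9.27 and 8.5 CPM (difference of the log2 fold changes -2.27, SE 0.55, edgeR adjusted p = 0.0443). Il6 and Tnf had interaction p of 0.707 and 0.38 after adjustment by edgeR. Nos2 and Duox2 had larger log2 fold changes in Tmem173iΔmye, 4.61 and 1.91 against 2.9 and 0.90, and the differences did not pass the interaction test (edgeR adjusted p = 0.0857 and 0.163). Of 8 erythroid genes none was called in Tmem173iΔmye by edgeR, DESeq2 or either limma fit or had an unadjusted p under 0.05 by edgeR, 7 rose in Tmem173fl/fl, and 5 differed by the interaction test (3 to 6 with 1 library left out). Their summed CPM was 5.89, 62.7 and 15.6 in untreated and 30.4, 25.4 and 28.6 in colitic Tmem173iΔmye libraries, and 7.12, 5.69 and 4.95 and 198, 332 and 154 in Tmem173fl/fl. Untreated Tmem173iΔmye library 2 lay above all 3 colitic libraries of its genotype and the other two untreated ones below them. Without it the median log2 fold change in Tmem173iΔmye was 1.13, against -0.01 with it, still with none called by edgeR, and 4 genes differed by the interaction test. Hbb-bs, a β-globin gene with close copies, was at 12.8, 10.8 and 13.8 CPM in colitic Tmem173iΔmye and 79.7, 135 and 71.5 CPM in colitic Tmem173fl/fl, and the part of blood in the tissue was not tested.

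**Figure D4:**
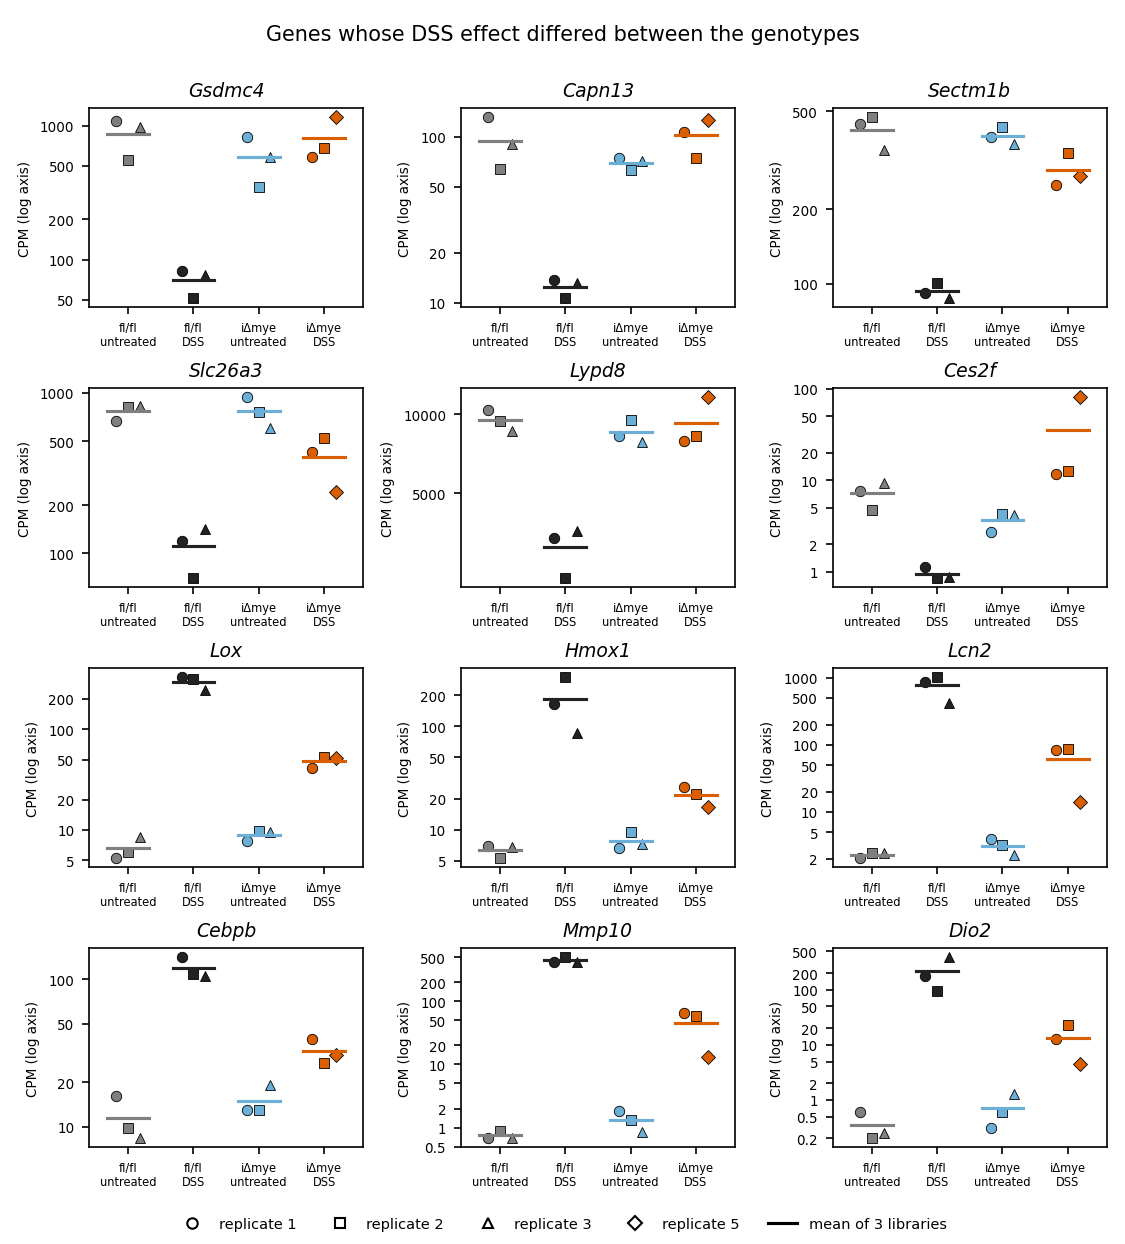
CPM on a log axis of 12 genes in each library of the 4 groups (untreated and DSS, Tmem173fl/fl and Tmem173iΔmye), one panel a gene and one point a library. Epithelial genes such as Gsdmc4 and Lypd8 are lower in colitic Tmem173fl/fl, and Lox, Hmox1, Lcn2, Cebpb, Mmp10 and Dio2 are higher there than in colitic Tmem173iΔmye.

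Part of the epithelial genes fell less in the Tmem173iΔmye mice or, as with Lypd8, did not fall there. Over all 24102 tested genes DSS called 1833 lower and 3589 higher in Tmem173fl/fl, and 144 lower and 357 higher in Tmem173iΔmye. Of 22 colonocyte genes 11 fell and 3 rose in Tmem173fl/fl, and 1 fell and none rose in Tmem173iΔmye. By the interaction test 6 differed, all with the higher log2 fold change in Tmem173iΔmye. With 1 library left out 4 to 8 had the higher change, and 1 the lower in 3 of the 12 fits. Slc26a3 was at 119, 70.02 and 143 CPM in colitic Tmem173fl/fl and 429, 525 and 239.7 CPM in colitic Tmem173iΔmye (difference of the log2 fold changes 1.86, SE 0.42, edgeR adjusted p = 0.034). Lypd8 was at 3379, 2364 and 3578 CPM and 7885, 8285 and 11600 CPM (difference of the log2 fold changes 1.73, SE 0.29, edgeR adjusted p = 0.00885), and Sectm1b at 91.5, 101 and 87.2 CPM and 251, 339 and 274 CPM (difference of the log2 fold changes 1.71, SE 0.24, edgeR adjusted p = 0.00537). The colitic groups did not overlap for these 3 genes. The gasdermin gene Gsdmc4, expressed in colonic epithelium, fell to 81.9, 51.2 and 76.1 CPM in Tmem173fl/fl and stood at 579.7, 685 and 1152 CPM in Tmem173iΔmye (difference of the log2 fold changes 4.11, SE 0.50, edgeR adjusted p = 0.0029). Capn13, a calpain protease, went the same way (difference of the log2 fold changes 3.48, SE 0.35, edgeR adjusted p = 0.000756). Hoxb13, whose level differed among the colitic libraries as given at the outset, was at 4.93, 0.71 and 0.613 CPM in colitic Tmem173fl/fl (difference of the log2 fold changes 5.69, SE 1.20, edgeR adjusted p = 0.0246), and its part in these differences was not tested. Interferon-stimulated genes fell in both genotypes, 28 of 28 in Tmem173fl/fl and 17 of 28 in Tmem173iΔmye, and 5 of them differed by the interaction test (2 to 15 with 1 library left out, the most without DSS Tmem173fl/fl library 2), Oas1a and Ifit1bl1 included (differences of 1.66, SE 0.34, and 2.48, SE 0.36).

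**Figure D5:**
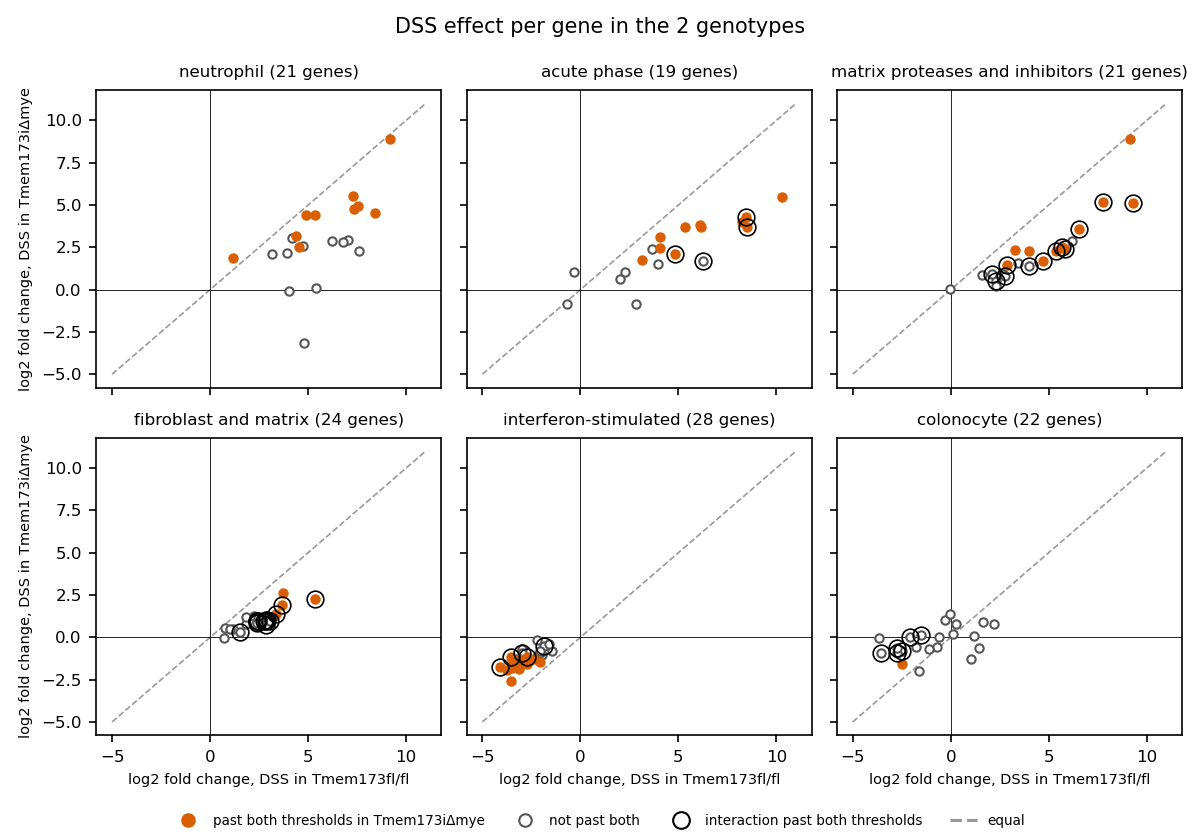
Log2 fold change for DSS in Tmem173iΔmye (y axis) against that in Tmem173fl/fl (x axis) for the genes of 6 lists, one panel a list; each point is a gene, circled where the interaction test called it, and the diagonal marks equal changes. Most neutrophil, acute phase and matrix genes lie to the lower right of the diagonal and interferon-stimulated genes between it and 0; values of genes with no count in a group are fitted.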

How the data were processed

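Poly(A) RNA from mouse colon was sequenced in 12 libraries, and the 6 libraries of Tmem173iΔmye mice carry the main comparison. The authors deposited raw counts per gene and FPKM values (counts scaled by gene length and library size) in one table. The submitters' processing notes name CASAVA 1.8, fastp, HISAT2 2.0.5, featureCounts 1.5.0-p3, DESeq2 1.20.0 and GRCm38. The strand setting of the counting is not given in the sources used here, so overlapping genes cannot be separated. Columns of the authors' own comparisons (group means, fold changes and p-values) were not used.

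Counts were tested with edgeR 4.0.16 in R 4.3.3 (TMM scaling, quasi-likelihood F test, Benjamini-Hochberg adjustment over the 24102 genes that reached an FPKM of 0.1 in 3 or more of 12 libraries). The DSS effect was fitted within each genotype (3 against 3), and the difference of the effects as an interaction over 12 libraries. SE is the log2 fold change divided by the square root of F. Calls needed an adjusted p below 0.05 with a log2 fold change of 1 or more in size. DESeq2 1.42.0, limma 3.58.1 (log2 of FPKM plus 0.1, and voom with library weights), other scalings, filters and thresholds, left-out libraries and a replicate block were alternatives. The count test was also run on simulated counts, with 100 genes changed by a log2 of 1.5 and 100 by 3. For DSS in Tmem173iΔmye it called 62 and 96 of these, and also 21 unchanged genes. For the interaction it called 27 and 90, and also 7 unchanged genes, so smaller differences between genotypes were often missed. Intervals of count ratios are exact at 95%.

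Groups came from the GEO labels. The compared libraries and the gene lists were chosen with earlier results of these data known. Named genes are the 12 largest called rises and falls with a mean FPKM of at least 1, the called and the most abundant uncalled members of each list (at most 4 of each direction and 2 uncalled), some of the genes the study's text names, and the 10 genes with the smallest interaction p. Lists were described by counts and medians, with no set test. Promoters are RefSeq sequences of GRCm38.p6, searched on both strands. Total counts per library were 13823237 to 18718915.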

Additional observations from a re-analysis of the deposited data

Results flagged for a closer look

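38 genes named above had a DSS effect that differed between the genotypes by the interaction test of edgeR over 12 libraries. The values are differences of the log2 fold changes, Tmem173iΔmye minus Tmem173fl/fl, and no cause was tested. Among genes with the lower log2 fold change in Tmem173iΔmye, the matrix and vessel genes were Adamts1 (-2.46), Lox (-3.06), Mmp2 (-2.52), Mmp3 (-2.51), Mmp10 (-4.12), Mmp13 (-3.08), Serpine2 (-2.98), Timp1 (-3.02), Col3a1 (-1.78), Dcn (-1.91), Thbs1 (-1.68) and Kcnj8 (-2.35). The cytokine, chemokine and signalling genes of the same direction were Cxcl1 (-3.38), Ccl2 (-2.27), Pf4 (-3.5), Il1r1 (-1.4), Cebpb (-2.27), Cebpd (-1.53), Ereg (-3.06), Inhba (-2.84) and Ptgs2 (-2.74). The acute phase, iron, macrophage and metabolic genes were Lcn2 (-4.09), Saa3 (-4.73), Hp (-4.49), Hmox1 (-3.4), Fcgr3 (-1.34), Mrc1 (-2.08) and Dio2 (-5.12).

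A higher log2 fold change in Tmem173iΔmye was found for the epithelial genes Gsdmc4 (4.11), Capn13 (3.48), Slc26a3 (1.86), Lypd8 (1.73), Sectm1b (1.71) and Il18 (2.13). The interferon and antigen presentation genes with this direction were Ifit1bl1 (2.48), Oas1a (1.66) and B2m (1.4). The homeobox gene Hoxb13 differed by 5.69. Libraries of both genotypes with pancreatic transcripts (DSS Tmem173iΔmye library 1, DSS Tmem173fl/fl libraries 1 and 2, untreated Tmem173fl/fl library 3 and untreated Tmem173iΔmye library 2) entered each of these values, as did DSS Tmem173iΔmye library 5, which had the highest Hoxb13 level among the colitic Tmem173iΔmye libraries.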

How the results depend on the processing

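Other scalings, filters, tools and thresholds and fits with a library left out were compared by their number of called genes. For DSS in Tmem173iΔmye mice (501 genes) the number was 2193 at an unadjusted p, 1137 by DESeq2, 41 by limma on log2(FPKM + 0.1), 753 by limma voom with library weights, 1013 with no filter and 981 in 1 fit of 12 libraries. It ranged from 51 (without untreated library 2) to 1469 (without DSS library 5) with 1 library left out, the others below 501 being 57 and 72 without untreated libraries 3 and 1 and 238 and 372 without DSS libraries 1 and 2. RLE scaling, upper-quartile scaling, an FPKM of at least 1, the adjusted p alone and a term for the Xist and Y-linked pattern kept it within 1.5 times. For the genes called in both genotypes (449) the corresponding numbers were 1601, 977, 29 and 861 with no filter, 853 in 1 fit, and 49 to 1272 with 1 library left out. For the difference between genotypes (614) they were 2747, 1376, 368, 1756 by voom, 1228 with no filter, and 267 (without untreated Tmem173fl/fl library 1) to 1728 (without DSS Tmem173iΔmye library 1). For DSS in Tmem173fl/fl mice (5422) only the adjusted p alone moved it by over 1.5 times, to 8544. Unfiltered fits test more genes, and fits without a library have fewer samples; the cause of the other shifts was not tested.

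No called gene named here changed direction under any of these alternatives. Among uncalled genes near a log2 fold change of 0, at most 5 of 132 named genes changed sign in any one setting. The call was lost for 73 of 91 called genes by limma on log2(FPKM + 0.1), for 61 to 66 without an untreated library and for 0 to 29 without a DSS library.

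The libraries of a genotype share numbers (1 and 2 in Tmem173iΔmye, 1, 2 and 3 in Tmem173fl/fl), but same-numbered libraries did not deviate together (correlations of -0.10 and -0.02, and of -0.03, -0.08 and -0.10), so the numbers were not taken as pairs. With the replicate number as a block, 1298 genes were called in Tmem173iΔmye from 4 libraries, against 625 in the same 4 libraries without the block (a fit chosen after seeing the data), and 4939 in Tmem173fl/fl. With 13823237 to 18718915 counts a library, genes with a few counts in all 3 untreated libraries have ratios that are limited by counting error.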
